A study of Mus musculus with 2 samples.

Results

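DNA methylation at 8 genes of insulin and insulin-like growth factor (IGF) signalling was compared between 2 bisulfite sequencing libraries of cultured mouse adipose progenitors. The genes were Igf1, Insr, Igf1r, Irs1, Irs2, Pik3r1, Akt1 and Akt2, chosen by name with earlier results of these data known. A differentially methylated region was counted when it overlapped the RefSeq span of a gene or the 2 kb on either side. Of the 28141 regions listed by the authors, 29 met this rule. One library came from PDGFRα+ cells (labelled CD140+/PDGFRa+), sorted for the platelet-derived growth factor receptor of mesenchymal progenitors, and the other from CD137+ cells, sorted for a tumour necrosis factor family receptor known from precursors of beige adipocytes. Both populations came from C57BL/6 mice, were isolated magnetically from subcutaneous or visceral fat, were taken through an adipogenic cocktail and were given 1 µM dexamethasone, a synthetic glucocorticoid. The labels do not say which depot gave which library, nor the age of the mice or how many were pooled, and no library without dexamethasone was compared.

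Insulin and IGF1 bind related receptor tyrosine kinases on the cell surface. The activated receptors phosphorylate adaptor proteins of the insulin receptor substrate (IRS) family, which recruit phosphoinositide 3-kinase (PI3K), and its lipid product activates the AKT kinases. In fat this pathway is known for driving the differentiation of preadipocytes, glucose uptake and the storage of triglyceride. Methylation of cytosines in CpG dinucleotides is generally low at active promoters and enhancers and high in most of the remaining genome.

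With 1 library per group there is no replicate check on any difference, and no p-value is given. A level states which fraction of the CpG cytosines in a region was read as methylated. Depth is unknown, so single levels carry no interval. Only regions called as different by the authors were listed, so the level at the rest of each gene is not known. A difference in the mix of cell types in a library and a difference within 1 cell type cannot be told apart. Of the sorting markers, Pdgfra itself held 1 region, at 0.210 in PDGFRα+ cells, against 0.769 in CD137+ cells, and Tnfrsf9, the gene of CD137, held none. All 6 leukocyte markers examined held a region, and 17 of their 20 regions were higher in PDGFRα+ cells. The genes differed, however. Ptprc held 8 regions, Ikzf1 5 and Laptm5 3, all higher, while Cd3e and Itgal held 1 lower region each. Spi1 held 1 region of each direction. Endothelial markers held one in 4 of 4 genes, with 7 of 10 regions higher, and the 3 lower ones were all in Tek. Mural and mesothelial markers held one in 3 of 4 genes each, with 0 of 3 and 1 of 9 regions higher. Of the adipocyte markers, 2 of 4 held a region, with 1 of 3 higher. For comparison, 29.5% of protein-coding genes held a region, and 22.3% of all listed regions were higher in PDGFRα+ cells. The part of other cell types in the values below was not tested.

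Regions were found at 5 of the 8 genes (62.5%), against 29.5% of 21887 protein-coding genes. Because the 8 genes were chosen with earlier results of these data known, comparisons with all protein-coding genes describe a chosen set and test nothing. Igf1r and Pik3r1 held 8 regions each, Irs1 held 7, Igf1 held 5 and Irs2 held 1. Insr, Akt1 and Akt2 held none. At least 5 regions were thus found at 4 of the 8 genes, against 3.75% of protein-coding genes. These genes are long, with spans of 21.1 to 281.4 kb against a median of 17.2 kb for protein-coding genes, and long genes have more room for regions. Counted per 100 kb of span and flanks, the 8 genes together held 3.81 regions, against 1.41 for all protein-coding genes. By this measure Irs1 was the densest of them, with 11.2 regions per 100 kb, a density reached by 2.47% of protein-coding genes. Pik3r1 followed with 8.75, Igf1 with 6.04, Irs2 with 3.54 on its single region, and Igf1r, the longest of them, with 2.80.

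Most of the 29 regions were less methylated in PDGFRα+ cells. There were 20 lower and 9 higher regions, so 69.0% were lower, against 77.7% of all listed regions (22.3% were higher) and 74.7% of those at protein-coding genes. The exact 95% interval of the 69.0% was 49.2 to 84.7 and covers counting error only. It treats the 29 regions as independent, although they lie in only 5 genes. The median difference over the 29 regions, as the level in PDGFRα+ minus the level in CD137+, was -0.490, and over all listed regions it was -0.488. With each gene counted once by its mean, the median of the 5 genes was -0.267. Counted by region, in direction and size the regions of these genes were thus close to the whole list. In the 20 lower regions the level ran from 0.0977 to 0.476 in PDGFRα+ cells (median 0.198) and from 0.613 to 0.963 in CD137+ cells (median 0.770). In the 9 higher regions it ran from 0.581 to 0.948 in PDGFRα+ cells (median 0.830) and from 0.122 to 0.590 in CD137+ cells (median 0.379). In size, 16 of the 29 regions (55.2%) differed by at least 0.5, against 58.4% of all regions. This was reached by 14 of the 20 lower regions but by only 2 of the 9 higher regions, both in Irs1. Over all listed regions 60.0% of the lower and 53.1% of the higher ones reached it. With differences under 0.5 left out, 87.5% of the remaining 16 regions of these genes were lower. Of the 16446 listed regions with differences that large, 13114 were lower and 3332 higher. Of the 9 higher regions, 4 lay in Pik3r1; without that gene 16 of 21 regions (76.2%) were lower.

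**Figure D1:**
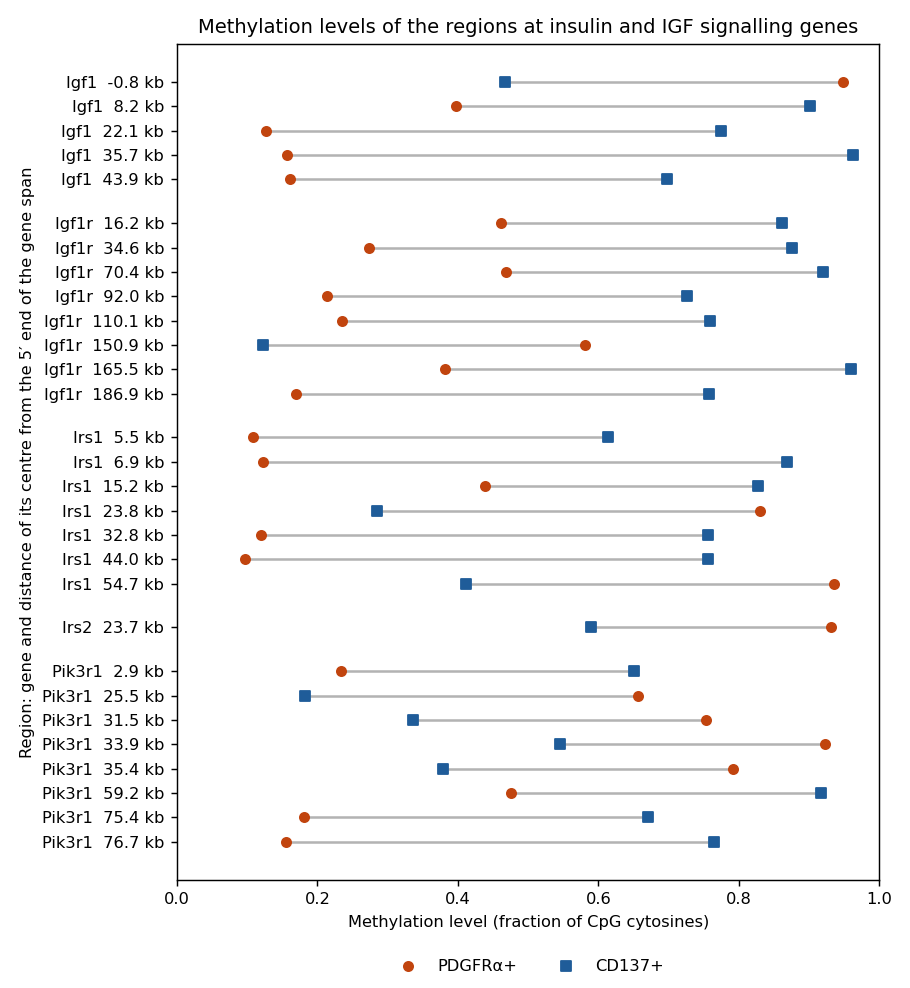
Methylation level (x axis, fraction of CpG cytosines) of the 29 regions in the PDGFRα+ library (circles) and the CD137+ library (squares), with 1 library per group and no error bars. Regions are grouped by gene and ordered from the 5′ end of the gene span (distance in kb at the left), and 20 of the 29 have the circle left of the square.

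Igf1 encodes the ligand IGF1, which fat cells and fibroblasts secrete and which acts on neighbouring cells. Inside the gene all 4 regions were lower in PDGFRα+ cells, while the region just upstream was higher. The gene lies on the plus strand of chromosome 10, from 87858265 to 87937047 in mm10. The upstream region, chr10:87857407-87857546, ended 719 bases before the span and stood at 0.948 in PDGFRα+ cells, against 0.467 in CD137+ cells. It lay inside the span of Igf1os, a non-coding RNA gene whose span overlaps the 5′ part of Igf1, so it belongs to both. It is the only one of the 29 regions that is outside the gene span, and the nearest region left out by the 2 kb limit lay 7537 bases from Igf1r. The first region inside the gene, chr10:87866249-87866731, had 0.398 in PDGFRα+ and 0.901 in CD137+ cells. The next, chr10:87880154-87880648, had 0.127 in PDGFRα+ and 0.775 in CD137+ cells. The region chr10:87893917-87894031 had 0.157 in PDGFRα+ and 0.963 in CD137+ cells, a difference of -0.806 and the widest of the 29. It held 6 cytosines. The last, chr10:87901997-87902227, had 0.161 in PDGFRα+ and 0.698 in CD137+ cells. The 3 regions from 21.9 kb to 44.0 kb into the gene were thus at 0.127 to 0.161 in PDGFRα+ cells, and the rest of the gene beyond them held none.

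The receptors differed in whether they held regions at all. Insr, the insulin receptor gene (chromosome 8, 3150922 to 3279649), held none in a span of 128.7 kb. The nearest listed region lay 73338 bases away, at chr8:3352987-3353154, at 0.845 in PDGFRα+ cells, against 0.327 in CD137+ cells. Igf1r, the gene of the IGF1 receptor (plus strand of chromosome 7, 67952257 to 68233668), held 8 regions spread from 16.1 kb to 187.0 kb into the gene, 7 of them lower in PDGFRα+ cells. As many regions were listed at 1.59% of protein-coding genes, and its density of 2.80 regions per 100 kb was reached by 16.4% of them. The Igf1r region with the most cytosines, chr7:67986553-67987116 with 23, stood at 0.273 in PDGFRα+ cells, against 0.875 in CD137+ cells, and its difference of -0.603 was the widest of the gene. The region nearest the start, chr7:67968398-67968613, was the densest of the 29 with 9.72 cytosines per 100 bases, and had 0.462 in PDGFRα+ and 0.861 in CD137+ cells. It kept an intermediate level in PDGFRα+ cells, as did chr7:68022633-68022744, with 0.468 against 0.919 in CD137+ cells.

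The next regions of Igf1r were lower in PDGFRα+ cells as well. In chr7:68044177-68044345 the level was 0.214 in PDGFRα+ and 0.726 in CD137+ cells. In chr7:68062275-68062382 it was 0.235 in PDGFRα+ and 0.759 in CD137+ cells. The exception among the 8 came next, 150.7 kb into the gene. That region, chr7:68102987-68103297, held 19 cytosines and had 0.581 in PDGFRα+ and 0.122 in CD137+ cells, the lowest CD137+ level of the 29. After it the direction turned back, with 0.382 in PDGFRα+ and 0.959 in CD137+ cells in chr7:68117700-68117770, and 0.170 in PDGFRα+ and 0.758 in CD137+ cells in chr7:68139148-68139271. Over the 7 lower regions the mean level of Igf1r was 0.315 in PDGFRα+ and 0.837 in CD137+ cells.

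Irs1, the adaptor gene best known for insulin action in fat and muscle, was lower in PDGFRα+ cells in 5 of 7 regions. It lies on the minus strand of chromosome 1, from 82233105 to 82291439. The regions nearest its start were chr1:82285878-82286068, 5.4 kb into the gene, with 0.109 in PDGFRα+ and 0.613 in CD137+ cells, and chr1:82284318-82284724, with 0.122 in PDGFRα+ and 0.869 in CD137+ cells. The second of these had a difference of -0.747, the widest of Irs1. A smaller difference was listed at chr1:82276190-82276250, with 0.438 in PDGFRα+ and 0.827 in CD137+ cells. Farther in, chr1:82258483-82258718 had 0.120 in PDGFRα+ and 0.756 in CD137+ cells. The region chr1:82247242-82247692 had 0.0977 in PDGFRα+ and 0.756 in CD137+ cells, the lowest PDGFRα+ level of the 29. The 2 higher regions of Irs1 were interspersed with the lower ones. They were chr1:82267506-82267689, with 0.830 in PDGFRα+ and 0.285 in CD137+ cells on 4 cytosines, and chr1:82236647-82236771 near the 3′ end, with 0.935 in PDGFRα+ and 0.412 in CD137+ cells on 6 cytosines. Over its 5 lower regions Irs1 had a mean level of 0.177 in PDGFRα+ and 0.764 in CD137+ cells.

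Irs2, the other widely expressed adaptor of the family, held a single region in a span of 24.2 kb on the minus strand of chromosome 8 (10984681 to 11008929). It lay near the 3′ end, at chr8:10985148-10985249, and was higher in PDGFRα+ cells, with 0.931 against 0.590 in CD137+ cells. Its difference of 0.341 on 5 cytosines was the smallest in size of the 29 regions. Irs1 and Irs2 thus differed in the number of regions, with 7 in a span of 58.3 kb for Irs1 and 1 in 24.2 kb for Irs2. The single Irs2 region had the direction of the 2 higher regions of Irs1, 1 of which also lay near the 3′ end. These are values of 2 libraries with no test between the genes.

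Pik3r1 encodes the main regulatory subunit of PI3K, which binds the phosphorylated adaptors and holds the catalytic subunit. It was the most mixed of the genes, with 4 regions lower and 4 higher in PDGFRα+ cells, and the directions were separated along the gene. It lies on the minus strand of chromosome 13, from 101680761 to 101768217. The 4 higher regions followed one another within 9979 bases, between 25.5 kb and 35.4 kb from the 5′ end, with no lower region between them. In order from the 5′ side, chr13:101742618-101742748 had 0.657 in PDGFRα+ and 0.183 in CD137+ cells, and chr13:101736579-101736896 had 0.753 in PDGFRα+ and 0.336 in CD137+ cells. The second of these held 26 cytosines, the most of the 29 regions, and its area statistic of 183 was the largest in size among them. Next were chr13:101734210-101734418, with 0.923 in PDGFRα+ and 0.545 in CD137+ cells, and chr13:101732770-101732953, with 0.792 in PDGFRα+ and 0.379 in CD137+ cells. The 4 regions held 62 cytosines, with mean levels of 0.781 in PDGFRα+ and 0.361 in CD137+ cells. A run of 4 or more higher regions was singled out after its values were seen; it occurred in 1.24% of the protein-coding genes with a region, and in 7.80% of those with at least 5 regions.

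The lower regions of Pik3r1 lay on both sides of this run. Near the 5′ start, 2.9 kb into the gene, chr13:101765253-101765326 had 0.233 in PDGFRα+ and 0.650 in CD137+ cells on 5 cytosines. On the 3′ side, chr13:101708908-101709117 had 0.476 in PDGFRα+ and 0.917 in CD137+ cells. The remaining pair stood close together, with 0.181 in PDGFRα+ and 0.671 in CD137+ cells in chr13:101692651-101692915, and 0.156 in PDGFRα+ and 0.765 in CD137+ cells in chr13:101691395-101691727. The mean levels over the 4 lower regions were 0.261 in PDGFRα+ and 0.751 in CD137+ cells. Because both directions were present, the mean difference over all 8 regions of Pik3r1 was -0.0342, and its sign turned when regions were weighted by their cytosines (0.0653) or when neighbours within 1 kb were merged (0.0383). It was -0.0983 with a 10 kb flank, and -0.609 with differences of at least 0.5, which leaves 1 region.

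The close pair in Pik3r1 stood at an internal start site, the only one of the listed starts with a region in its window. Pik3r1 is known to give shorter forms of the regulatory subunit from internal starts. RefSeq lists 2 starts for the gene in GRCm38.p6, the assembly of mm10, one at the 5′ end and one 75.6 kb into the gene, at position 101692630. One lower region reached from position -285 to position -21 relative to the internal start, and the other began 903 bases downstream of it. The windows of 250 bases before and 50 bases after both starts are shown because they differ in CpG content and in whether a region was listed. They are read 5′ to 3′ on the minus strand, with every CG in capitals.
Pik3r1 internal start, chr13:101692581-101692880: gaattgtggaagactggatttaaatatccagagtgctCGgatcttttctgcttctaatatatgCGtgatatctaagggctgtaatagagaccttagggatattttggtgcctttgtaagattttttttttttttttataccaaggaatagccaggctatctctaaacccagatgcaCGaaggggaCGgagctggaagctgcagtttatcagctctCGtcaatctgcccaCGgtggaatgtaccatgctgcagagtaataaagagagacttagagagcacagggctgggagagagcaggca
Pik3r1 5′ start, chr13:101768168-101768467: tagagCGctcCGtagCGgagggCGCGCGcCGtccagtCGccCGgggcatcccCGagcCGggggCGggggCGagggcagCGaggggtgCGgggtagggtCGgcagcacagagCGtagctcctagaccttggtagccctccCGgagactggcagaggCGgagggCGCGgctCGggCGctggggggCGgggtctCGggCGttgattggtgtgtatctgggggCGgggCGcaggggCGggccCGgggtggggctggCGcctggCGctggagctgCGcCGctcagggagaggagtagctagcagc
The window of the internal start held 6 CG dinucleotides and the window of the 5′ start held 34. At least 34 were found in 7.73% of the 32851 RefSeq windows, whose median was 7. The lower region covered bases 1 to 230 of the internal window. These hold 5 of its 6 CG in full and, at base 230, the C of the remaining CG. The region ran 35 bases beyond the window on the upstream side, where CG were not counted. For the whole region 10 cytosines were deposited. No region was listed in the window of the 5′ start. The internal window held TATAAA only on the strand opposite the printed one, where the printed bases read tttata. With either strand counted, 13.6% of all windows held TATAAA. The internal window lacked GGGCGG, a motif that itself contains a CG. The 5′ window held GGGCGG, as did 35.7% of all windows, and lacked TATAAA. Neither window held AGAACA on either strand, against 19.0% of all windows.

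**Figure D2:**
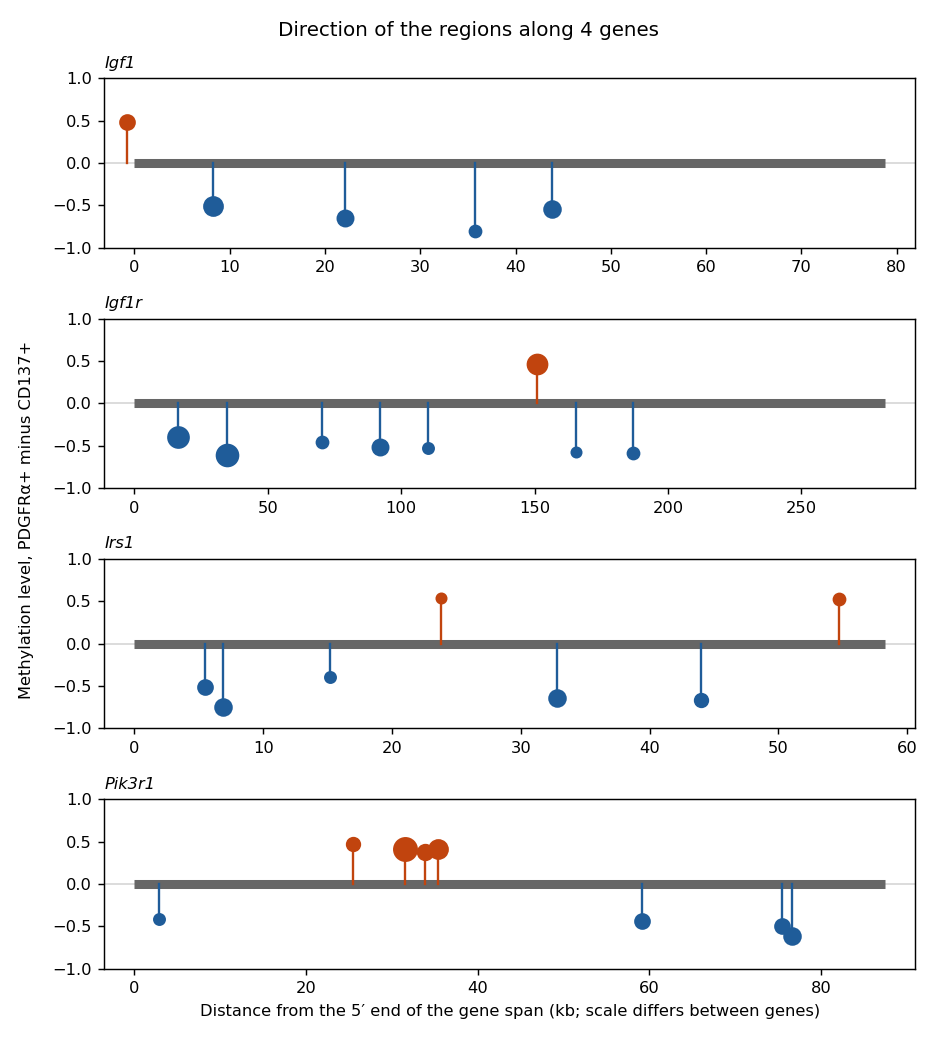
Difference in methylation level (y axis, PDGFRα+ minus CD137+) of each region against the distance of its centre from the 5′ end of the gene span in kb (x axis, with a scale of its own for each gene) for Igf1, Igf1r, Irs1 and Pik3r1. The thick bar is the gene span, points above it are higher and points below it lower in PDGFRα+ cells, and point area grows with the number of cytosines. The 4 higher regions of Pik3r1 follow one another between 25.5 and 35.4 kb.

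Akt1 and Akt2, the kinase genes downstream of PI3K, held no region. Akt1 (minus strand of chromosome 12, 112653821 to 112674884) spans 21.1 kb and its nearest listed region lay 43170 bases away. Akt2 (plus strand of chromosome 7, 27591552 to 27640826) spans 49.3 kb. Its closest listed region was 225044 bases distant, the greatest distance of the 3 genes without a region. The absence of a listed region does not show equal methylation, since unlisted stretches may have differed by less than the authors' threshold or lacked reads.

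Windows around RefSeq starts were matched for 7 of the 8 genes, 12 windows in all, and 1 of them overlapped a region, the internal one of Pik3r1. Over all windows 1.42% did. The Igf1r window held 48 CG, which 1.22% of windows reached, and its nearest region began 16141 bases away. The Irs2 window held 41 and the window of an Akt1 start held 42. The Igf1 window held 6, and the nearest region there was the higher one upstream, 3565 bases from the listed start. That start, at 87861111, lies inside the gene span, which begins at 87858265. The same region ended 719 bases before the span. Whether a region lies in an exon or an intron was not analysed here.

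In length and cytosine content the 29 regions resembled the whole list. They were 61 to 564 bases long with a median of 191, against 216 over all regions, and held 4 to 26 cytosines with a median of 10, against 9. Cytosine density was 5.24 per 100 bases at the median, against 4.62. The 9 higher regions had a median density of 6.11 and the 20 lower ones of 5.03, and over all regions the same split gave 5.06 and 4.51. The 3 lower regions with the smallest differences, -0.388 in Irs1, -0.399 in Igf1r and -0.417 in Pik3r1, had densities of 8.20, 9.72 and 6.76. The next smallest, -0.441 in Pik3r1 and -0.452 in Igf1r, had densities of 4.76 and 5.36, near the median of the lower regions.

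**Figure D3:**
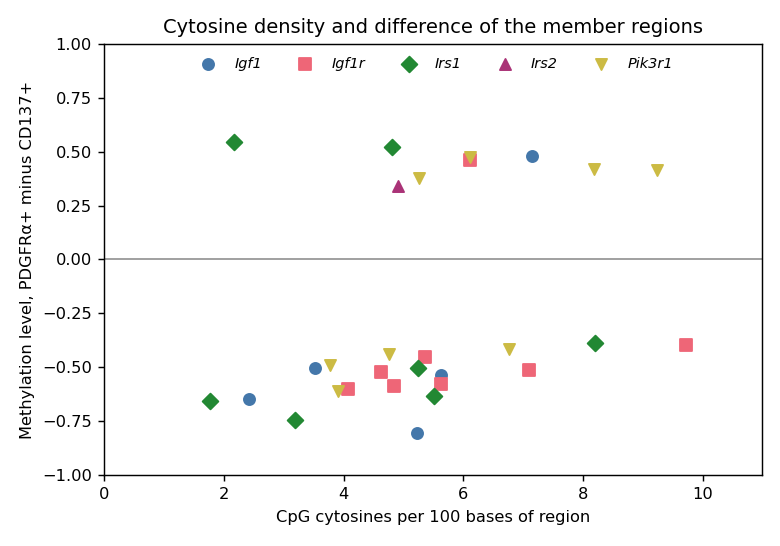
Difference in methylation level (y axis, PDGFRα+ minus CD137+) against the number of CpG cytosines per 100 bases (x axis) for the 29 regions, with a symbol for each gene. Densities run from 1.77 to 9.72, and both directions occur over most of this range.

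Other genes of the pathway were examined in 7 lists by role, 77 genes in all, also chosen with earlier results of these data known. Of these, 46 (59.7%) held a region, 29 of them mostly lower and 10 mostly higher in PDGFRα+ cells and 7 evenly split, against 29.5% of protein-coding genes with a region. Most of the 77 genes were longer than the median of 17.2 kb for protein-coding genes. No density per 100 kb was calculated for them, so the share does not take gene length into account. Their 127 regions were 71.7% lower (91 lower and 36 higher), with a median difference of -0.478. The 8 genes, with 69.0% lower, lay close to this. None of 88 RefSeq windows of the 61 matched genes overlapped a region, and over all RefSeq windows only 1.42% did.

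Among ligands and binding proteins 5 of 12 genes held a region, 4 of them mostly lower. Igf2r, which encodes the receptor that clears IGF2, was lower in 3 of 3 regions, with mean levels of 0.278 in PDGFRα+ and 0.824 in CD137+ cells. Among IGF binding protein genes, Igfbp6 was lower in 3 of 3 (0.270 in PDGFRα+ and 0.795 in CD137+) and Igfbp4 in its only region (0.214 in PDGFRα+ and 0.827 in CD137+). Igfbp2 was higher in 2 of 3 regions, where the levels were 0.900 and 0.846 in PDGFRα+ cells, against 0.362 and 0.343 in CD137+ cells. Igf2, Ins1 and Ins2 held none.

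Among receptors and adaptors 9 of 13 genes held a region, 6 of them mostly lower. Gab1, a docking protein gene, held 9 regions, 8 of them lower. Its exception, chr8:80793605-80794325, held 29 cytosines and had 0.824 in PDGFRα+ and 0.239 in CD137+ cells. Sos1, which encodes an activator of RAS, had the widest mean difference of the lists, from its only region, with 0.0999 in PDGFRα+ and 0.950 in CD137+ cells; that region lay also within 2 kb of Arhgef33. Cbl, a ubiquitin ligase gene, was higher in its only region (0.902 in PDGFRα+ and 0.263 in CD137+).

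Of the PI3K subunits and kinases 6 of 10 genes held a region, with 7 of 12 regions lower (58.3%), against 77.7% of all listed regions. With so few regions this difference in share was not tested. Pik3cd, a catalytic subunit gene known mainly from leukocytes, was higher in 2 of 2 regions, with levels of 0.661 and 0.862 in PDGFRα+ and 0.161 and 0.282 in CD137+ cells. Prkci, an atypical protein kinase C gene, was lower in 2 of 2 (mean 0.227 in PDGFRα+ and 0.776 in CD137+), and Sgk1, a kinase gene known to respond to glucocorticoids, was lower in 2 of 3.

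Of the inhibitors 10 of 13 genes held a region, with 19 of 27 regions lower. Like Pik3r1, Inpp5d, which encodes a lipid phosphatase of blood cells that opposes PI3K, held 4 higher and 4 lower regions, but in a different order. Its first 4 regions in coordinate order were all higher, at 0.770 to 0.808 in PDGFRα+ and 0.171 to 0.370 in CD137+ cells. The other 4 were all lower, at 0.316 to 0.609 in PDGFRα+ and 0.913 to 0.963 in CD137+ cells. Ptprf, a receptor phosphatase gene, was lower in its only region (0.218 in PDGFRα+ and 0.823 in CD137+), and Phlpp2, which encodes a phosphatase acting on AKT, was higher in its only one (0.955 in PDGFRα+ and 0.321 in CD137+).

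In the mTOR branch, which controls protein synthesis, 5 of 10 genes held a region and 12 of 17 regions were lower. Deptor, an mTOR inhibitor gene, held 6, of which 4 were lower. Rps6kb1, the gene of a ribosomal S6 kinase, was lower in 2 of 2 (mean 0.279 in PDGFRα+ and 0.809 in CD137+), and Rheb, which encodes the GTPase that activates mTOR, was higher in its only region (0.908 in PDGFRα+ and 0.466 in CD137+). Among FOXO, GSK3 and output genes 8 of 12 held a region and 21 of 30 regions were lower. Tbc1d1, which encodes a regulator of glucose transporter traffic, held 11 regions, 8 of them lower. Foxo3, a forkhead gene inhibited by AKT, was lower in 5 of 5 (mean 0.241 in PDGFRα+ and 0.775 in CD137+), and Foxo6 was higher in its only region (0.848 in PDGFRα+ and 0.206 in CD137+). Slc2a4, the gene of the insulin-responsive glucose transporter, held none.

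The MAP kinase branch, the smallest of the lists, held the fewest regions, with 4 in 3 of 7 genes. This was 42.9% of its genes, against 29.5% of protein-coding genes. Mapk3 was lower in its only region (0.402 in PDGFRα+ and 0.872 in CD137+), and Map2k1, which encodes a kinase that activates MAP kinases, held 1 region of each direction.

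**Figure D4:**
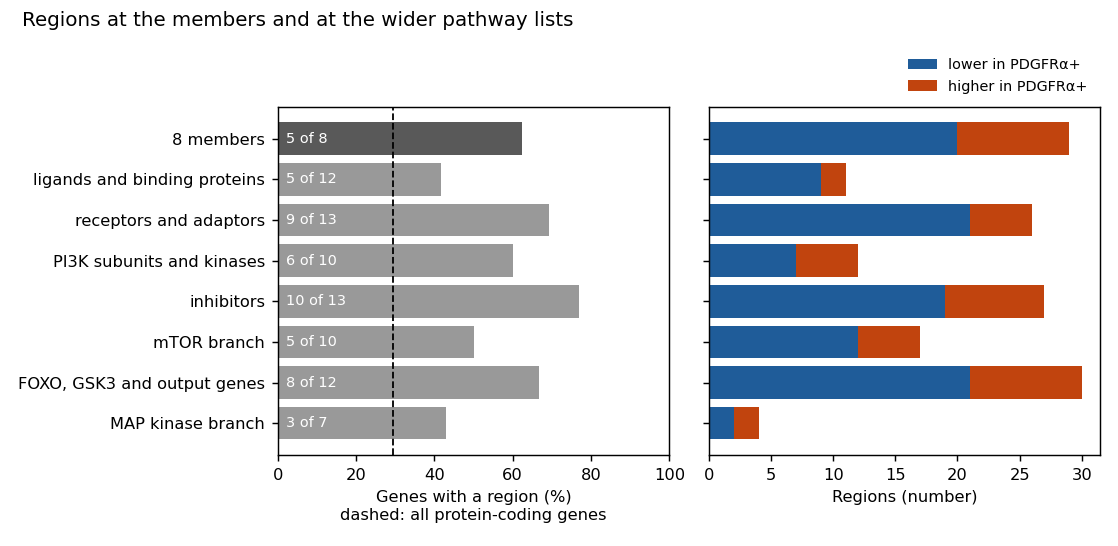
Left, percentage of genes with at least 1 region in each list (x axis), with the counts in the bars and a dashed line at 29.5% for all protein-coding genes. Right, number of regions lower and higher in PDGFRα+ cells (x axis) in the same lists, where lower regions are the more numerous in every list except the MAP kinase branch, which has 2 of each.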

How the data were processed

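DNA methylation was measured by bisulfite sequencing in 1 PDGFRα+ and 1 CD137+ library, from DNA sheared to about 350 bases per the labels' protocols. The authors deposited a table of regions on mm10, per the submitters' processing notes. Per the file headers it gives each library's methylation level as a fraction from 0 to 1, the difference and an area statistic as scores (CD140 against CD137), the length and the number of cytosines. The authors' aligner, callers, thresholds and coverage remain details not given in the sources used here.

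The deposited difference equals PDGFRα+ minus CD137+ within 0.0001. Deposited starts count from 0: after adding 1, the first base of all 247 regions that begin inside a RefSeq promoter window, and the last base of all 237 that end inside one, was a base of a CG. All 88 regions wholly inside a window had at most as many cytosines as CG bases on both strands, so the cytosines were taken as CpG, both strands counted. Coordinates are printed counting from 1.

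Spans came from RefSeq on GRCm38.p6, with a 2 kb flank and a minimum overlap of 1 base, and strands, starts and sequences from its promoter windows. Regions were counted by direction, and no test was made. The members, the lists and the markers were chosen with earlier results of these data known. All 8 genes and all their regions are named. Of each wider list, the genes with the most regions and with the widest mean difference in each direction are named; others named were chosen after their values were seen, and an item that this rule selects is not reported here. The overlap search was tested on simulated regions. The work used Python 3.11.15 with pandas 2.3.3, numpy 2.4.6, matplotlib 3.10.9 and scipy 1.17.1.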

Additional observations from a re-analysis of the deposited data

How the results depend on the processing

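Leaving out differences under 0.5 kept 16 of the 29 regions of the 8 genes, raised the share lower in PDGFRα+ cells to 87.5% and moved the median difference to -0.582. Over the whole list the same limit kept 16446 regions, of which 13114 were lower and 3332 higher. Requiring at least 10 cytosines kept 17 regions, and keeping only area statistics above the median kept 18; these settings leave out regions by construction. With each of the 5 genes counted once by its mean, the median difference was -0.267. The mean difference of Pik3r1 turned positive when weighted by cytosines (0.0653) and with neighbours within 1 kb merged (0.0383), from regions of both directions, and was -0.609 with differences of at least 0.5, on 1 region. Under the other planned settings (differences of at least 0.3, at least 5 cytosines, no flank, a 10 kb flank, and at least 50% of the region inside) 27 to 31 regions remained. Between 4 and 5 of the 8 genes held a region under every setting tried, Irs2 being the one lost. The share lower ran from 67.9% to 87.5% for the 8 genes and from 68.9% to 72.7% for the wider pathway lists. No paired analysis was possible because each group has 1 library. Leaving out a replicate was not possible for the same reason. Read depth is unknown, and regions with 4 to 6 cytosines rest on few positions.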

Other observations

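Beyond the 2 kb limit, 16 further regions lay within 50 kb of the 8 genes, 11 lower and 5 higher in PDGFRα+ cells. Igf1r had 7 of them, more than any other of the genes, and Pik3r1 had 4. Upstream of the 5′ start of Pik3r1, the region chr13:101777841-101777937 lay 9624 bases away and stood at 0.0440 in PDGFRα+ cells, against 0.655 in CD137+ cells. On its 3′ side, chr13:101663627-101664321 had 0.865 in PDGFRα+ and 0.247 in CD137+ cells. Farther out on that side, chr13:101650609-101650913 had the other direction, with 0.0843 in PDGFRα+ and 0.773 in CD137+ cells. The single neighbours of both adaptor genes were higher in PDGFRα+ cells. The one near Irs1, chr1:82203124-82203365, had 0.961 in PDGFRα+ and 0.301 in CD137+ cells, and the one near Irs2, chr8:10936654-10936712, had 0.950 in PDGFRα+ and 0.170 in CD137+ cells. Insr and Akt2 had no neighbour within this distance. Akt1 had 2, a higher one near Inf2 (0.930 in PDGFRα+ and 0.493 in CD137+) and a lower one near Cep170b (0.231 in PDGFRα+ and 0.846 in CD137+).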
